A study of Homo sapiens with 6 samples.

Results

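The HOX clusters A to D of T47D cells were followed through 6 maps of chromosome compartments. HOX genes are homeodomain transcription factor genes that stand side by side in 4 clusters of the human genome. The members were the 38 HOX genes listed for this work, 10 in HOXA, 10 in HOXB, 9 in HOXC and 9 in HOXD, and they fell into 9 bins of 100 Kb out of 27898 bins of hg19 that carried a score in all 6 libraries. The 10 bins on either side of each cluster, 80 in all, served as flanks, and each of them also carried a score. The rule that picks genes and flanks goes by gene name and position and uses no score.

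T47D cells are a long-established luminal breast cancer line that expresses the estrogen receptor. Parental cells went without hormone for 72 h and were harvested untreated (T0) or 1, 4, 16 or 24 h after 100 nM estradiol (E2) was added (T1, T4, T16 and T24). A tamoxifen-resistant derivative of the same line (TamR) gave the sixth library. GEO's labels call it untreated, whereas the study's methods describe resistant cells as grown in medium with tamoxifen. All 6 libraries were made by TCC, a Hi-C variant with ligation on a surface, in which HindIII cuts the chromatin. With 1 library per condition, differences between conditions could not be set against replicates, and no test between them was possible. Whether cultures were pooled in a library is not given in the sources used here. TamR differs from the parental cells both in its derivation and in its culture, and these cannot be told apart.

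The compartment score is the first eigenvector of the corrected contacts between chromosomes. A positive score puts a bin in compartment A, which holds active and gene-rich chromatin, and a negative score puts it in compartment B, which holds inactive chromatin. All scores below are multiplied by 1000. They are relative to the other bins of the same library, in which they had an SD of 5.98, and for this reason the percentile of a bin among all scored bins of its library is given beside the scores. Between 44% and 47.6% of bins were in A per library. Across bins, the scores of T1 to T24 correlated with those of T0 at a Pearson r of 0.985 to 0.994, and those of TamR at 0.894. The median bin had an SD of 0.436 over the 5 parental libraries and an absolute TamR minus T0 difference of 1.5. The files give no contact counts, and the depth of a library is therefore unknown.

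HOX proteins specify position along the body axis, and the order of the genes on the chromosome follows the order of their domains along that axis. Low-numbered genes act towards the head, and high-numbered genes act in the trunk, limbs and urogenital tract. In cells that do not use them, the clusters are covered by Polycomb complexes and the mark H3K27me3. In the adult breast and in breast cancer, members of each cluster are known as regulators of growth and identity. HOXB7 and HOXB13 in particular have been linked to the response to tamoxifen. A compartment score reports the contacts of the chromatin and not the expression of a gene.

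The clusters also carry microRNA genes, which lie between the HOX genes or inside their annotated spans and repress HOX messages. They are shown because related copies sit in different clusters: the miR-196 genes in HOXA, HOXB and HOXC, and the miR-10 genes in HOXB and HOXD. Mature sequences are those of RefSeq, placed on GRCh37 (the sequence of hg19) by exact match, 5′ to 3′, with the seed (bases 2 to 8) in capitals.
miR-196a-5p: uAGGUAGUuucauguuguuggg
miR-196b-5p: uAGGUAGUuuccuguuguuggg
miR-10a-3p: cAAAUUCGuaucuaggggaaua
miR-10b-3p: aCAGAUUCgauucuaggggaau

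miR-196a-5p and miR-196b-5p share their seed and differ by A12C, counted from the 5′ end of miR-196a-5p. miR-196a-5p is encoded by a pair of genes. MIR196A2 places it at chr12:54385546-54385567 on the plus strand, within the span of HOXC6, and MIR196A1 at chr17:46709894-46709915 on the minus strand, within that of HOXB7. miR-196b-5p lies at chr7:27209147-27209168 on the minus strand, within HOXA9. The same mature sequence was thus encoded in a HOXC bin with a score of 6.86 at T0 and 10.78 in TamR and in a HOXB bin with a score of 10.17 at T0 and 8.81 in TamR. miR-10a-3p lies at chr17:46657226-46657247 on the minus strand within HOXB3, and miR-10b-3p at chr2:177015096-177015117 on the plus strand within HOXD3. Compared position by position from the 5′ end, these sequences differ at 14 bases and do not share their seed. That comparison allows for no shift. Both sequences hold the same long stretch towards the 3′ end, which starts a base further along in miR-10b-3p. The count of 14 comes largely from this shift and is no measure of how far the copies have diverged. A microRNA from the MIR10B gene is known to repress HOXD10, which lies in the neighbouring bin of the same cluster. That is not said here of the sequence shown, miR-10b-3p.

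Before E2, all 9 HOX bins were in compartment A, and the clusters stood in the order HOXB, HOXC, HOXA and HOXD. At T0 the mean scores were 10.95 for the 3 HOXB bins, 7.97 for the 2 HOXC bins, 3.97 for the 2 HOXA bins and 0.72 for the 2 HOXD bins. HOXB and HOXC thus lay deep in A, at median percentiles of 95.1 and 88, HOXA at 73.6, and HOXD just above the border at 57.5. The order held in each of the 5 parental libraries. The ranges of the 4 cluster means over these libraries, 10.47 to 10.95, 7.60 to 7.97, 2.44 to 3.97 and 0.72 to 2.70, overlapped only between HOXA and HOXD. With the mean of the chromosome taken off each score, HOXB stood at 5.21 at T0, HOXC at 7.46 and HOXA at 5.13, and HOXB was below HOXC. The mean score of chromosome 17 at T0 was 5.74.

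**Figure D1:**
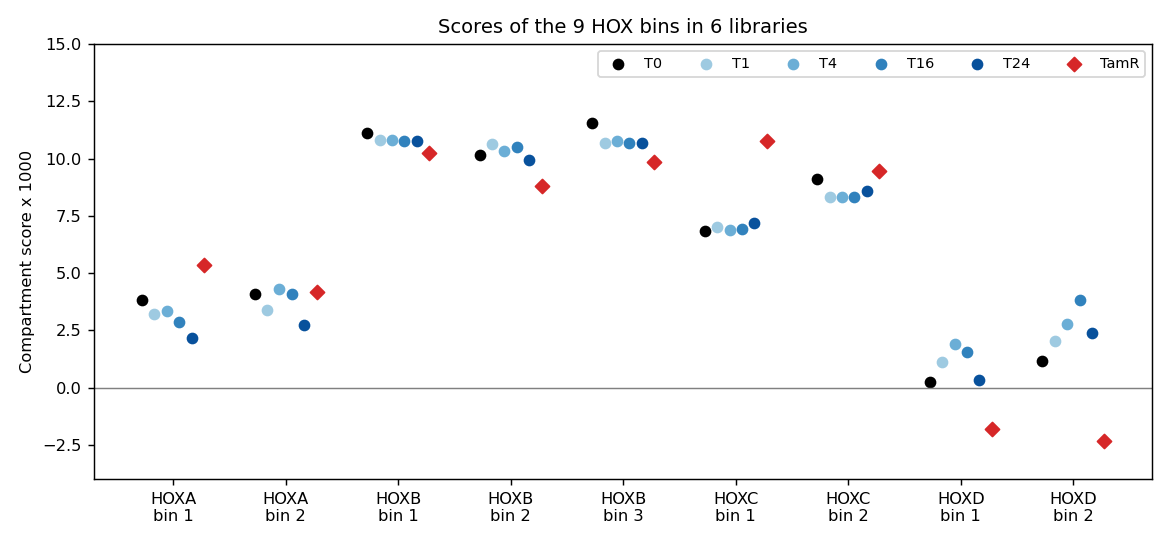
Compartment score times 1000 (vertical axis) of the 9 HOX bins (horizontal axis, bins numbered in genome order within a cluster) in the 6 libraries, with 1 point per library and no error bars because each condition has 1 library. The HOXD points lie above 0 in the 5 parental libraries and at -1.78 and -2.32 in TamR.

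HOXA on chromosome 7 holds the genes from HOXA2, which patterns the hindbrain and its neural crest, to HOXA13, which acts in limb and genital tract. The first HOXA bin, chr7:27100001-27200000, holds the starts of HOXA2, HOXA3, HOXA4, HOXA5, HOXA6 and HOXA7. It scored 3.83 at T0, 3.21 at T1, 3.36 at T4, 2.85 at T16, 2.15 at T24 and 5.35 in TamR. The second bin, chr7:27200001-27300000, holds HOXA9, HOXA10, HOXA11 and HOXA13, of which HOXA10 and HOXA11 are known for their part in the uterus. It scored 4.11, 3.41, 4.30, 4.09, 2.73 and 4.16 in the same order. Both bins were lowest among the parental libraries at T24, and the first of them was higher in TamR than in any parental library while the second lay inside the parental range.

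HOXB on chromosome 17 holds HOXB1, a hindbrain gene, at one end and HOXB13, a gene of the prostate and tail region, at the other, beyond a gap without HOX genes. The first bin, chr17:46600001-46700000, holds the starts of HOXB1, HOXB2, HOXB3, HOXB4, HOXB5, HOXB6 and HOXB8. Its scores were 11.12, 10.83, 10.80, 10.78 and 10.75 from T0 to T24 and 10.23 in TamR. The bin of HOXB7 and HOXB9, chr17:46700001-46800000, scored 10.17, 10.64, 10.35, 10.52 and 9.95 from T0 to T24 and 8.81 in TamR. Both genes reach across the border of these bins. The bin of HOXB13, chr17:46800001-46900000, scored 11.55, 10.68, 10.77, 10.66 and 10.69 from T0 to T24 and 9.86 in TamR. In all 3 bins the TamR score lay below the 5 parental scores, and in all 3 it stayed at or above the 90.7th percentile of its library.

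HOXC on chromosome 12 runs from HOXC13, a gene of hair follicle and nail, to HOXC4. The bin chr12:54300001-54400000 holds the starts of HOXC13, HOXC12, HOXC11, HOXC10, HOXC9 and HOXC6. It scored 6.86, 7.02, 6.89, 6.92 and 7.20 from T0 to T24 and 10.78 in TamR. Its TamR minus T0 difference of 3.93 was the largest positive one of the 9 bins, and 91.7% of all scored bins had a smaller or equal difference. The bin of HOXC8, HOXC5 and HOXC4, chr12:54400001-54500000, scored 9.09, 8.31, 8.32, 8.32 and 8.60 from T0 to T24 and 9.45 in TamR. Both HOXC bins were above all parental libraries in TamR, the first by far more than its parental SD of 0.139 and the second by about as much as its SD of 0.335.

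HOXD on chromosome 2 runs from HOXD13, the gene of digits and external genitalia, to HOXD1. The bin chr2:176900001-177000000 holds HOXD13, HOXD12, HOXD11, HOXD10, HOXD9 and HOXD8. It scored 0.25 at T0, 1.14 at T1, 1.91 at T4, 1.56 at T16, 0.33 at T24 and -1.78 in TamR. The bin of HOXD4, HOXD3 and HOXD1, chr2:177000001-177100000, scored 1.18, 2.04, 2.77, 3.85 and 2.37 from T0 to T24 and -2.32 in TamR. Both bins were in A in the 5 parental libraries and in B in TamR. The second stood at the 59.8th percentile at T0 and at the 40th in TamR, and its difference of -3.50 was among the lowest 7.08% of all scored bins.

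The starts of genes at the ends of HOXD, HOXA and HOXB are shown as examples, and a link to the compartments was not tested. Each is the stretch of 200 bases that ends at the base before the annotated start, from the RefSeq promoter table (made on GRCh38.p14) and placed on GRCh37 by exact match, 5′ to 3′ on the gene's strand, with each CG in capitals. HOXD13 lies at chr2:176957249-176957448 on the plus strand, HOXD1 at chr2:177053196-177053395 on the plus strand, HOXA13 at chr7:27239711-27239910 on the minus strand and HOXB1 at chr17:46608374-46608573 on the minus strand.
HOXD13: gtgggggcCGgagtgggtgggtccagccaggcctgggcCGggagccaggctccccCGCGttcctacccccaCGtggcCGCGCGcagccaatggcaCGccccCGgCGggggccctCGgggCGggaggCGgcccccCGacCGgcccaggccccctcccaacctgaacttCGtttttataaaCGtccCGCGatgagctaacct
HOXD1: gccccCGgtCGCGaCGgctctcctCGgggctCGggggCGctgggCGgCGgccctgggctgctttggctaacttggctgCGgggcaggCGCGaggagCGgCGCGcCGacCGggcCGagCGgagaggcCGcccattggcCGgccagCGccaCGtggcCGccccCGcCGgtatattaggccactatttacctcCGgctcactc
HOXA13: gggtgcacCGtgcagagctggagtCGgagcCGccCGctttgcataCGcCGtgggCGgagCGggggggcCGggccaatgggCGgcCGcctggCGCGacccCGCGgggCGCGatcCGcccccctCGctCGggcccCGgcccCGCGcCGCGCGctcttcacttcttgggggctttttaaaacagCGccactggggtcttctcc
HOXB1: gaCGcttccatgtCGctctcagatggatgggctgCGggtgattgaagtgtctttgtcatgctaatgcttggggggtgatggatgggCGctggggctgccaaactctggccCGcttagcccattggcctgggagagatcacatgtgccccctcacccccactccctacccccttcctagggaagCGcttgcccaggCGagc

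The motif searched was CG, which reads the same on both strands. It occurred 20 times before HOXD13, 27 times before HOXD1, 27 times before HOXA13 and 7 times before HOXB1, against a median of 9 over the 35116 windows of the table, of which 92% held it at least once. The HOXD13, HOXD1 and HOXA13 windows were thus rich in CG, and the HOXB1 window was near the middle of all windows. The windows shown, none of them from HOXC, do not stand for their clusters. The window of HOXD1 overlaps HAGLR and that of HOXA13 overlaps HOTTIP, both long noncoding RNA genes of the clusters. Over whole bins, the 9 HOX bins held 45.6% to 51.9% G and C, against a median of 39.8% over all bins, and 17 to 32 HindIII sites, against a median of 29. The GC content was 48.2% and 45.6% in the HOXD bins and 47.7% and 51.5% in the HOXA bins. Its part in the compartments was not tested. Of the 38 genes, 20 had an entry in the promoter table.

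None of the 9 HOX bins differed in compartment between T0 and an E2 library. Compared with T0, 0 of 9 HOX bins and 5 of 80 flank bins (6.25%) changed compartment at 1 or more E2 time points, and 7.11% of all scored bins did so. Within their compartment, the HOXD bins were higher at each E2 time point than at T0, and the HOXA bins were lowest at 24 h.

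Relative to T0, the mean of the HOXD bins was higher by 0.87, 1.62, 1.99 and 0.63 from T1 to T24. The HOXD flanks were higher by 0.76, 1.24, 1.27 and 0.79. All 4 E2 scores were above T0 in 21 of the 22 bins of the HOXD window (95.5%), the cluster with its flanks, including both HOXD bins. Of all scored bins 23.1% had this pattern, and the counts in the other windows were 7 of 22 for HOXC, 3 of 23 for HOXB and 0 of 22 for HOXA. The 22 bins are neighbours and share 1 T0 library, so that they are not separate instances. The left HOXD flank held 2 bins that were in B at T0 and in A in all 4 E2 libraries. The bin from 176500001 scored -0.29 at T0 and 0.43, 1.79, 1.74 and 0.75 after E2, and the bin from 176700001 scored -0.68 at T0 and 1.03, 1.21, 2.45 and 0.96. Neither holds the start of a protein-coding gene.

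The mean of the HOXA bins differed from T0 by -0.66, -0.14, -0.50 and -1.53 from T1 to T24. The HOXA flanks differed by -0.13, -0.03, -0.18 and -1.25, so that the low score was seen at 24 h on both sides of the cluster as well. T24 was the lowest parental library in 22 of 22 bins of the HOXA window. Of all scored bins 31.8% had T24 lowest, and the count was 3 of 23 for HOXB, 1 of 22 for HOXC and 1 of 22 for HOXD. Here too the bins of a window are neighbours from the same T24 library and not separate instances. The mean of chromosome 7 differed from T0 by -0.09 at T24. The share of bins in A was also lowest in the T24 library, at 44% against 46.2% at T0, and its part in the result was not tested. The outermost right HOXA flank bin, with the start of JAZF1, a zinc finger gene, went from 0.52 at T0 to -0.47 at T24 and was the only HOXA window bin to leave A.

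Differences from T0 of the cluster mean were -0.23, -0.31, -0.29 and -0.48 for HOXB and -0.31, -0.37, -0.35 and -0.07 for HOXC. In HOXB the HOXB13 bin was higher at T0 than in any E2 library, and without it the T0 level was 10.64. In the HOXC right flank, the bin of MUCL1, which encodes a small mucin of breast epithelium, went from -1.12 at T0 to 0.17 at T1 and 0.73 at T24 and was in B at T4 and T16. The bin of TESPA1, a gene of T cell receptor signalling, went from -1.75 at T0 to 0.11 at T24.

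**Figure D2:**
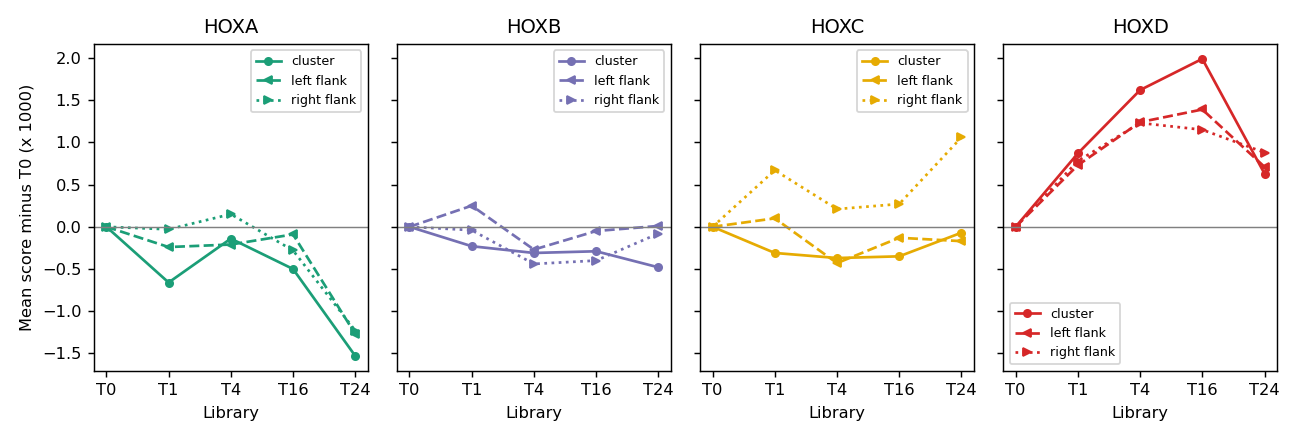
Mean compartment score times 1000 minus its T0 value (vertical axis) in the 5 parental libraries (horizontal axis) for each cluster (solid line) and its left and right flanks of 10 bins each (dashed and dotted lines), with 1 library per point. The HOXD cluster reaches 1.99 above T0 at T16 and the HOXA cluster 1.53 below T0 at T24.

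TamR differed from T0 in opposite directions between the clusters. The TamR minus T0 difference of the cluster mean was 2.15 in HOXC, 0.78 in HOXA, -1.32 in HOXB and -2.77 in HOXD. In HOXB, HOXC and HOXD it was larger in size than any difference of an E2 library from the same T0 library, and in HOXA it was smaller than that of T24. HOXD was the 1 cluster in another compartment: 2 of 9 HOX bins (22.2%) and 21 of 80 flank bins (26.2%) changed between T0 and TamR, and 13.9% of all scored bins did. Both HOX bins and 17 of the 21 flank bins lie in the HOXD window. The other 4 are neighbours in the HOXC right flank, so that these bins are not separate instances. Both HOXD bins went from A to B, as did 6.27% of all scored bins. Only the 46.2% of scored bins that were in A at T0 could do so, and the share among them was larger than 6.27%. With bins close to the border left out (the lowest 10% of absolute score in any library), 1 of 8 HOX bins and 11 of 64 flank bins changed, since the bin of HOXD13 to HOXD8 drops out. In the order of the levels in TamR, HOXC stood at 10.12, HOXB at 9.63, HOXA at 4.75 and HOXD at -2.05. The bins of HOXC (9.45 and 10.78) and HOXB (8.81 to 10.23) overlapped in TamR, so that these neighbours in the order did not differ beyond the spread of their bins. They did not overlap at T0, when the bins of HOXB stood between 10.17 and 11.55 and those of HOXC at 6.86 and 9.09.

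**Figure D3:**
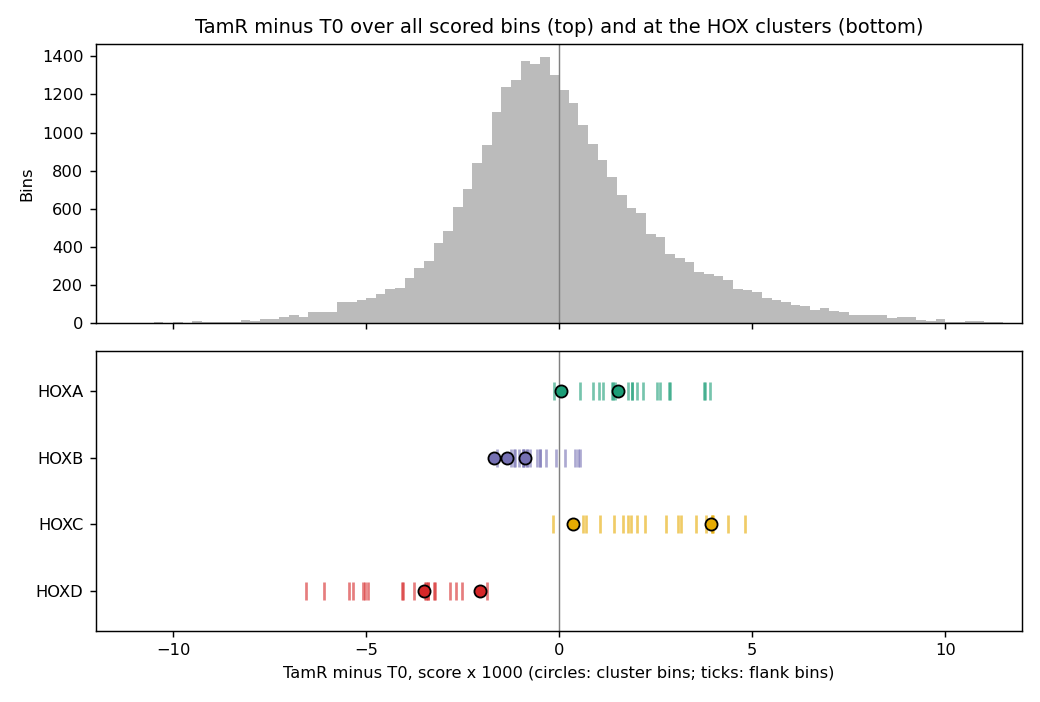
Top, number of scored bins (vertical axis) by TamR minus T0 score times 1000 (horizontal axis, differences beyond 12 in either direction not drawn). Bottom, the same difference for each cluster bin (circles) and flank bin (ticks), with both HOXD circles and all HOXD ticks to the left of 0.

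Set against all 5 parental libraries, TamR was below the parental range in 5 of 9 HOX bins, those of HOXB and HOXD, and above it in 3, the first HOXA bin and both HOXC bins. Of all scored bins, 43.6% were below and 35% above, so that leaving the parental range was in itself common. Over the windows, TamR was below the parental range in 22 of 22 HOXD bins and 13 of 23 HOXB bins, and above it in 20 of 22 HOXA bins and 20 of 22 HOXC bins. The bins of a window are neighbours and not separate instances. The whole chromosomes differed far less than the HOXC and HOXD windows. Their mean TamR minus T0 differences were 0.35 for chromosome 7, 0.37 for chromosome 17, -0.09 for chromosome 12 and -0.51 for chromosome 2.

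**Figure D4:**
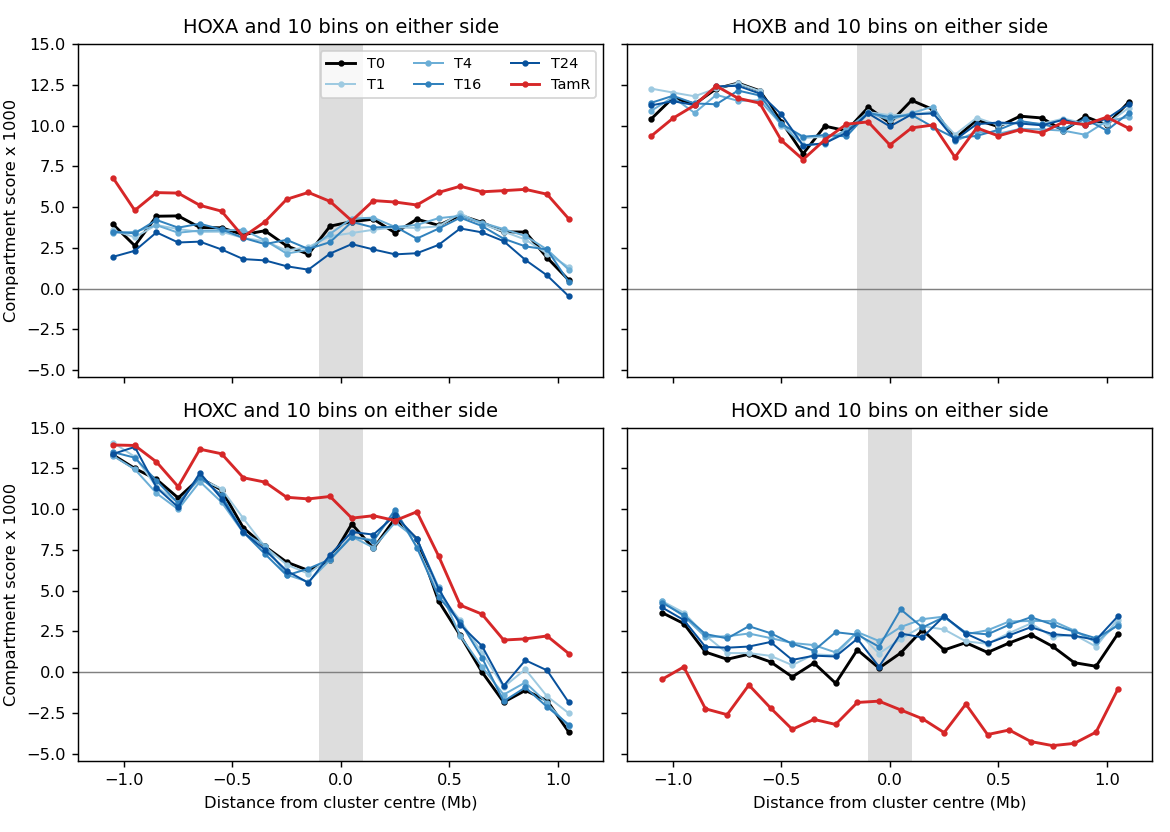
Compartment score times 1000 (vertical axis) by distance from the cluster centre in Mb (horizontal axis) in the 6 libraries, with the cluster shaded and 1 line per library. The TamR line lies above the parental lines over most of HOXA and HOXC, close to them in HOXB, and below 0 over all but 1 bin of HOXD.

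The flanks differed from T0 in the same direction as their clusters. From T0 to TamR the mean of the 20 flank bins differed by 1.98 in HOXA, -0.59 in HOXB, 2.53 in HOXC and -4.02 in HOXD, which is the sign of the cluster in all 4. The cluster minus flank contrast was 0.56 at T0 and -0.65 in TamR in HOXA, 0.35 and -0.37 in HOXB, 1.75 and 1.37 in HOXC, and -0.65 and 0.61 in HOXD. In HOXA, HOXB and HOXD the sign of the contrast at T0 was thus the opposite of that in TamR. In HOXA the mean of the flanks was higher in TamR while the bin of HOXA9 to HOXA13 differed by 0.05, and in HOXD the flanks were lower than at T0 by more than the cluster. In HOXC the contrast at T0 was -2.13 against the left flank alone and 5.63 against the right flank alone. The parental contrasts of HOXA ranged from 0.03 to 0.56, those of HOXB from -0.09 to 0.40 and those of HOXD from -0.80 to 0.07.

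In the HOXD window 17 of 20 flank bins changed from A to B, 7 on the left and 10 on the right, besides both cluster bins. The bin of LNPK, an endoplasmic reticulum protein, next to HOXD13, went from 1.37 at T0 to -1.86 in TamR. The bin of MTX2, a mitochondrial import protein, next to HOXD1, went from 2.59 to -2.86, and the bin of HNRNPA3, an RNA-binding protein, from 2.34 to -1.06. The 2 left flank bins that were in A after E2 scored -3.51 and -3.21 in TamR, in B as at T0. A single bin of the window was in A in TamR, that of ATF2 and ATP5MC3 (named after its values were seen), at 0.32 against 2.98 at T0.

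In the HOXC window 4 right flank bins went from B to A, as did 7.67% of all scored bins. With 46.2% of scored bins in A at T0, the share among those in B at T0 was larger than 7.67%. They were the 4 outermost bins. The first of them, without a protein-coding start, scored -1.84 at T0 and 1.97 in TamR, followed by those of MUCL1 (-1.12 and 2.04), TESPA1 (-1.75 and 2.22) and NEUROD4, a neuronal transcription factor gene (-3.67 and 1.14). On the other side of the cluster the scores were lower towards the cluster at T0 and, by less, in TamR. The 4 bins left of HOXC13 scored 8.86, 7.71, 6.75 and 6.24 at T0 and 11.93, 11.66, 10.73 and 10.63 in TamR. No flank bin of HOXA or HOXB differed in compartment between T0 and TamR.

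Within a cluster, neighbouring bins kept 1 order through the parental libraries and, in 3 clusters, took the other in TamR. In HOXA the bin of HOXA2 to HOXA7 was below that of HOXA9 to HOXA13 in the 5 parental libraries, by 0.19 to 1.24, and above it by 1.19 in TamR. In HOXC the bin of HOXC13 to HOXC6 was below that of HOXC8 to HOXC4 by 1.30 to 2.23, and above it by 1.33 in TamR. In HOXD the bin of HOXD13 to HOXD8 was below that of HOXD4 to HOXD1 by 0.86 to 2.30, and above it by 0.54 in TamR. The turn did not follow the HOX numbering, since the bin that was the higher one in TamR held the low-numbered genes in HOXA and the high-numbered genes in HOXC and HOXD. The HOXB pairs kept their order. This makes 3 of 5 pairs, all 5 of which had 1 order in the parental libraries. Of the 14250 pairs of neighbouring bins in the genome with 1 order in the parental libraries, 18.5% had the other in TamR.

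The run of bins in 1 compartment that holds each cluster also differed in extent. HOXA lay in an A run of 2.2 to 2.6 Mb in the parental libraries and of 8.9 Mb in TamR, from chr7:22200001 to 31100000. Of the 89 bins of that run, 42 had been in B at T0 and 35 in all 5 parental libraries. HOXB lay in an A run of 4.7 Mb in each parental library and 5.1 Mb in TamR, whose left end is a bin without a score. HOXC lay in an A run of 9 to 9.2 Mb in the parental libraries and 12.9 Mb in TamR, and the run reached 600 Kb past the cluster on the right in the former and 3900 Kb in the latter.

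HOXD lay in an A run of 1.4 Mb at T0, which reached 100 Kb past the cluster on the left and 1100 Kb on the right. After E2 the run was 8.4 Mb at T1, 9.1 Mb at T4 and 8.5 Mb at T16 and T24. At T0 the run ended on the left at the bin from 176700001, whose score of -0.68 was close to the border, and its length therefore rests on a few bins near 0. In TamR HOXD lay in a B run of 14.2 Mb, chr2:176100001-190300000, of whose 142 bins 30 had been in A at T0. The HOXD cluster was at the left end of that run, 800 Kb from its border.

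**Figure D5:**
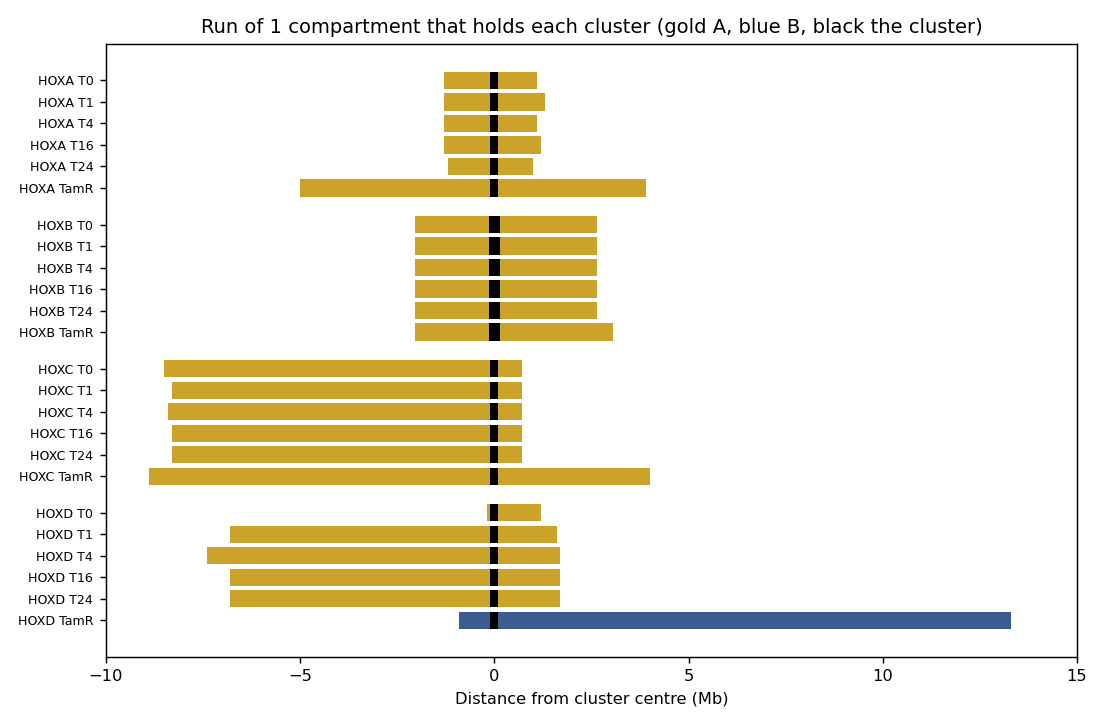
Extent of the run of bins in 1 compartment around each cluster by library (rows), in Mb from the cluster centre (horizontal axis), with A in gold, B in blue and the cluster in black. The HOXA run spans 2.4 Mb at T0 and 8.9 Mb in TamR, and the HOXD run is 1.4 Mb of A at T0 and 14.2 Mb of B in TamR.

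The stretch of HOXD that was in A in all 5 parental libraries and in B in TamR was chr2:176800001-178200000, or 14 bins. Of 375 such runs in the genome, 5 were longer. It held 13 protein-coding starts, of which 9 were HOXD genes and the others LNPK, EVX2, MTX2 and HNRNPA3. Its mean score was 1.52 at T0, 2.36 at T1, 2.77 at T4, 2.81 at T16, 2.36 at T24 and -2.94 in TamR.

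Other homeobox genes were looked up as a list of 27, made of EVX genes beside the clusters, dispersed genes of the same class, and the PBX, MEIS and PKNOX genes, whose proteins bind DNA together with HOX proteins. Of the 27, 21 had their start in A at T0 and 22 in TamR, 0 changed after E2 and 3 changed between T0 and TamR (11.1%). Of all scored bins, 46.2% were in A at T0 and 47.6% in TamR, 7.11% changed after E2 and 13.9% changed in TamR, so that the share changed in TamR was near that of all bins. The median TamR minus T0 difference of the list was -0.58, against -0.27 over all scored bins. EVX2, which shares the first HOXD bin, went from A to B (0.25 to -1.78). EN1, a gene of midbrain and limb, went from B to A (-3.75 to 0.71), and so did MEIS1, a HOX cofactor (-4.27 to 1.00). All 14 genes of a list of Polycomb and Trithorax regulators of HOX chromatin, from EZH2 to KMT2A, had their start in A in all 6 libraries, in each of which 44% to 47.6% of all scored bins were in A, and their median TamR minus T0 difference was -0.68 against -0.27 over all scored bins. Genes were counted singly here and below, also where neighbours share a bin. Their shares are set beside all bins, whose median number of coding gene starts was 0. Compartment A is gene-rich, so that any list of genes can hold more of A than all bins do.

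Markers of luminal and of other breast cells were read in the same way. All 7 luminal markers had their start in A at T0 and 4 in TamR. The 3 that changed are 42.9% of the list, where 13.9% of all scored bins changed and 6.27% went from A to B. Only 46.2% of all scored bins were in A at T0, so that the share among bins in A was larger than 6.27%. The median TamR minus T0 difference of the list was -2.17 against -0.27 over all scored bins. A list of 7 is short, and its genes are counted singly although KRT8 and KRT18 start in the same bin. ESR1, the estrogen receptor gene, scored 4.90 at T0 and -0.05 in TamR, PGR, the progesterone receptor gene, 0.17 and -6.92, and GATA3, a luminal transcription factor gene, 2.12 and -0.79. The TamR score of ESR1 was close to the border. Of the 5 basal and mesenchymal markers 3 had their start in A at T0 and 3 in TamR, and 0 changed between T0 and TamR, where 13.9% of all scored bins did; a list of 5 is too short to be set apart from that share. The bins of TP63 and ZEB1 (named after their values were seen) changed after E2, TP63 from 1.62 at T0 to -0.36 at T24 and ZEB1 from -0.92 at T0 to 0.79 at T24. KRT8 and KRT18 (also named after their values were seen) start in the outermost left flank bin of HOXC, which was in A in all 6 libraries, between 13.27 and 14.08.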

How the data were processed

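TCC contacts of 6 T47D libraries were used, 1 per condition. The authors deposited for each library 1 score per 100 Kb bin. According to the study's methods, reads were aligned to hg19 with bowtie2, contacts were filtered and iteratively corrected with HiCLib, contacts within chromosomes were removed and the first eigenvector was taken. The sum of squares is near 1 in each library, so sizes are not calibrated between libraries, and depth is unknown. A score of 0 was read as no score.

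From the deposited scores the sign was taken as the compartment, without reorientation. Genes were placed by their start in GENCODE as lifted to GRCh37, which has the chromosome lengths of the bins. Percentiles are over the 27898 bins scored in all 6 libraries. An SD over the 5 parental libraries spans different treatments and is no replicate error. GC content and HindIII sites were counted in GRCh37. Python 3.11.15, numpy 2.4.6, pandas 2.3.3 and matplotlib 3.10.9 were used, and the code was tested on simulated tracks. There were 0 other columns of values.

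The member rule uses no score, but the members and gene lists were chosen with earlier results of these data known. Flank genes were named where their bin changed compartment, at most 5 per cluster side, and list genes where their bin changed between T0 and TamR, with exceptions marked in the text. Alternatives covered the border, weak bins, smoothing, the reference library, the flanks and each E2 library.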

Additional observations from a re-analysis of the deposited data

How the results depend on the processing

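The number of contacts is unknown, which limits every difference. No paired analysis was possible because there was 1 library per condition. Of 118 alternative values, 82 were labelled the same. Levels and differences had to keep their sign and move by less than the SD over the 5 parental libraries. Counts had to stay within 1.5 times the count reported, and differences in percentile had only to keep their sign. Some of the 82 could hardly move. The bins with gene starts were the same 9 HOX bins, and every library had an SD of 5.98. The chromosome mean drops out of a cluster minus flank contrast. The number 82 is therefore no measure of stability. The count of 0 HOX bins changing after E2 held under every alternative run. Without the bins that were among the lowest 10% by absolute score in a library, 1 of 8 HOX bins changed from T0 to TamR, 11 of 64 flank bins did, and 0 flank bins changed after E2, so that the second HOXD bin carries the change and the first lay near the border. With 5 or 20 flank bins a side, 8 and 45 flank bins changed in TamR and 2 and 16 after E2. With the 10 bins a side used above, 21 flank bins changed in TamR, 7 on the left and 14 on the right. After E2 the number was 5, with 2 on the left and 3 on the right. Flank bins changing after E2 numbered 3 with the border at the median, with the chromosome mean taken off, and without T24.

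With the chromosome mean taken off, the T0 levels were 5.13 for HOXA, 5.21 for HOXB and 7.46 for HOXC, and the HOXB difference from T0 to TamR was -1.69. Against the mean of the parental libraries, the TamR difference was -1.05 for HOXB, 2.37 for HOXC and -3.79 for HOXD. Without the HOXB13 bin, HOXB gave a level of 10.64, a difference of -1.13, a contrast with the flanks of 0.04 and a percentile of 94.1. Ranked within their own chromosome, HOXA stood at the 81.8th, HOXB at the 72.7th and HOXC at the 85.6th percentile. The contrast at T0 depended on the flank in HOXC: it was 0.72 with 5 and 2.18 with 20 bins a side, 5.63 against the right flank and -2.13 against the left, where the sign turned. In HOXB it was 0.81 with 5 bins, 0.08 against the left and 0.62 against the right flank, and with 20 bins a side it was 3.04 in HOXA and -1.05 in HOXD.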
